A study of Arabidopsis thaliana with 33 samples.

Results

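SWEET3 (AT5G53190), SWEET8 (AT5G40260, also called RPG1) and SWEET9 (AT2G39060) are 3 Arabidopsis thaliana genes of the SWEET family of sugar transporters, followed here in flowers of 3 mutants and in a staged flower series. They were taken by gene symbol from the array's annotation. Each has 1 probe, so 3 of 26090 gene probes and 3 of the 16 SWEET genes with a named probe are described (of 17 listed genes, SWEET12 is not analysed here). SWEET proteins sit in membranes and let sugars pass down their concentration gradient, and plants use them wherever a cell must release sugar to a neighbour. SWEET8 is known from the tapetum, the nurse layer of the anther, and from microspores, where it is needed for a normal pollen wall. SWEET9 is the sucrose exporter of the nectary, needed for nectar. SWEET3 has no flower role that can be stated here as background.

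The study compared mutant with wild-type flowers to find genes used in successive phases of stamen development, by hybridising both RNAs to 1 long-oligonucleotide array in different dyes. The ap3 mutant lacks a homeotic gene needed for petals and stamens, and its tissue was the inflorescence meristem with young buds, up to early stage 10 (4 arrays). The ms1 mutant lacks a tapetal gene and viable pollen, and nzz (also called spl) fails at the start of sporogenesis; for both, the meristem and buds up to stage 13 were taken (4 arrays each). In the ms1 series, flowers were split by age into 7 samples (3 arrays each), sample 1 being mature stage 13 flowers, samples 2 to 6 pairs of consecutive, ever younger buds, and sample 7 the youngest buds with the meristem. Each array set its mutant against wild type of the same tissue, and each sample pooled tissue of 50 plants. The sources used here name neither the alleles nor the plant strain.

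All values are log2 ratios of mutant over wild type, so that negative means lower in the mutant, and no level of any gene in either genotype can be read from them. The deposited numbers were read as log10 ratios with wild type on top, a direction that is likely but not settled, since it rests on the study's design and on the side on which pollen genes lie. With the opposite sign every "higher" and "lower" would change places. Array medians lay between -0.08 and 0.14, between 2.36% and 16.8% of an array's values stood at the limit of 6.64 log2 units in size, where only a bound is known, and 31 to 1328 gene probes per array had no value. The array number limits the precision. The 3 genes had a value on each of the 33 arrays, and 1 of these values stood at the limit. A difference was called at an adjusted p under 0.05 (limma, Benjamini-Hochberg over all probes tested), with a dye term in the fit. The tissues are mixtures, so fewer cells of a type and less RNA per cell cannot be told apart.

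SWEET8 was far lower in nzz inflorescences than in wild type. The 4 arrays read -4.60, -4.25, -4.24 and -3.76. All lay close together, whichever dye carried the mutant RNA. The fitted ratio was -4.21 ± 0.40 (SE, n = 4 arrays), an 18.5-fold lower signal (limma adjusted p = 0.000375). SWEET8 had been picked out earlier for a difference between ms1 and nzz in these same arrays, so this p-value is no independent support. SWEET3 fell as well, with arrays at -2.71, -1.62, -2.74 and -2.93. Its ratio was -2.50 ± 0.36, or 5.65-fold lower (limma adjusted p = 0.00289, n = 4 arrays). For comparison, nzz had calls on 15.2% of the whole array, with 6.91% lower and 8.32% higher. The calls of SWEET8 and SWEET3 held in each of the 19 alternative fits that kept the reading of the values, with limma adjusted p-values of at most 0.0106 for SWEET8 and 0.0375 for SWEET3. Read instead as dye ratios not yet turned, the values would give 0.21 for SWEET8 and -0.34 for SWEET3, neither called. That reading sets arrays of opposite dye against each other, so an equal fall on all 4 arrays cancels by arithmetic. Wherever this reading is given below, a lost call is therefore no test of the result.

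SWEET9 did not pass in nzz, and its arrays disagreed. The 2 arrays with the mutant RNA in Cy5 read -0.74 and -0.73, and the 2 with the mutant in Cy3 read -4.92 and -2.18. All 4 lay below 0, but the spread (SD 1.97) was nearly as large as the mean, and the ratio of -2.14 ± 0.70 had a limma adjusted p of 0.0728. Without ms1 replicate 4, an array that shares the estimate of spread, the same ratio passed (limma adjusted p = 0.0333).

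In ms1 inflorescences none of the 3 genes was called, while 2.18% of all probes were. SWEET8 read 0.85, 0.18, 0.35 and -0.28 on replicates 1 to 4, around a ratio of 0.27 ± 0.40 (95% confidence interval -0.62 to 1.17, limma adjusted p = 0.796). SWEET3 read 0.43, 0.38, -0.36 and 1.05, with a ratio of 0.37 ± 0.36 (limma adjusted p = 0.664). SWEET9 read -2.72, -2.46, -1.04 and 0.59, so 3 of 4 arrays were low and 1 was not. Its ratio was -1.41 ± 0.70 (limma adjusted p = 0.399).

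In ap3 early buds SWEET8 was below 0 on all 4 arrays without passing the test. The arrays read -3.13, -0.38, -2.61 and -1.17, a range of almost 3 log2 units that does not follow the dyes. The ratio was -1.82 ± 0.40 (3.54-fold lower, limma adjusted p = 0.149, unadjusted p = 0.00125). SWEET3 read -2.00, -0.39, 0.19 and -0.05, only replicate 1 being far from 0, and SWEET9 read -1.11, -0.62, 0.53 and -0.40. Their ratios were -0.56 ± 0.36 and -0.40 ± 0.70, with limma adjusted p-values of 0.686 and 0.992. Calls were rare in ap3, at 0.177% of probes.

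**Figure D1:**
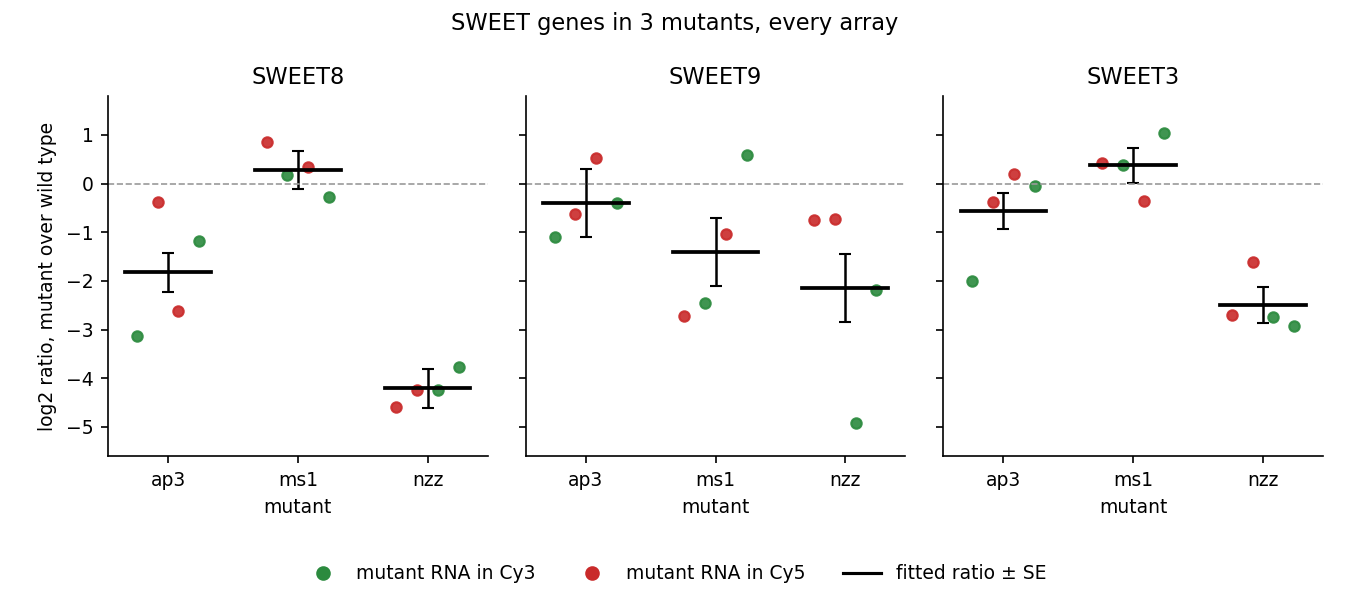
Log2 ratios of mutant over wild type (vertical axis) for SWEET8, SWEET9 and SWEET3 in ap3, ms1 and nzz (horizontal axis). Points are single arrays, coloured by the dye of the mutant RNA, and bars give the fitted ratio ± SE. The 4 nzz arrays of SWEET8 lie between -4.60 and -3.76, and the SWEET9 arrays of nzz split from -0.73 to -4.92.

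The mutants were then compared with each other, in 3 contrasts for each gene. SWEET8 stood 4.49 ± 0.56 log2 units higher in ms1 than in nzz, each relative to its wild type (95% confidence interval 3.22 to 5.75, limma adjusted p = 0.0132). This gene had been picked out for that difference in earlier work on these data, so the p-value is no independent support. The ratio of SWEET3 was also higher in ms1 than in nzz, by 2.87 ± 0.51 (1.71 to 4.03, limma adjusted p = 0.0485), where 0.685% of all probes were called. For both genes the ms1 and nzz arrays did not overlap. This adds no support, since the share of all probes with such a gap was not counted. Read as dye ratios, the difference would turn to -0.53 for SWEET8 and be 0.67 for SWEET3, neither called. The SWEET3 call was lost without any 1 of 11 of the 12 arrays in the fit (limma adjusted p up to 0.176 over the alternatives), and the SWEET8 call without ms1 replicate 1 (0.0539) or nzz replicate 1 (0.0587). For SWEET9 the difference was 0.74 ± 1.00 (-1.51 to 2.99, limma adjusted p = 0.754), an interval that leaves room for a large difference either way.

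The contrasts with ap3 did not pass, and there the tissue differs too, since ap3 samples held no bud past early stage 10. SWEET8 was 2.39 ± 0.56 higher in ap3 than in nzz (limma adjusted p = 0.0613) and 2.10 ± 0.56 lower in ap3 than in ms1 (limma adjusted p = 0.199). SWEET3 had differences of 1.94 ± 0.51 for ap3 minus nzz and -0.94 ± 0.51 for ap3 minus ms1. Without ap3 replicate 1, the ap3 minus nzz difference passed for both genes, at 2.82 for SWEET8 and 2.42 for SWEET3 (limma adjusted p = 0.0324 and 0.0254). SWEET9 gave 1.74 ± 1.00 for ap3 minus nzz and 1.01 ± 1.00 for ap3 minus ms1.

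**Figure D2:**
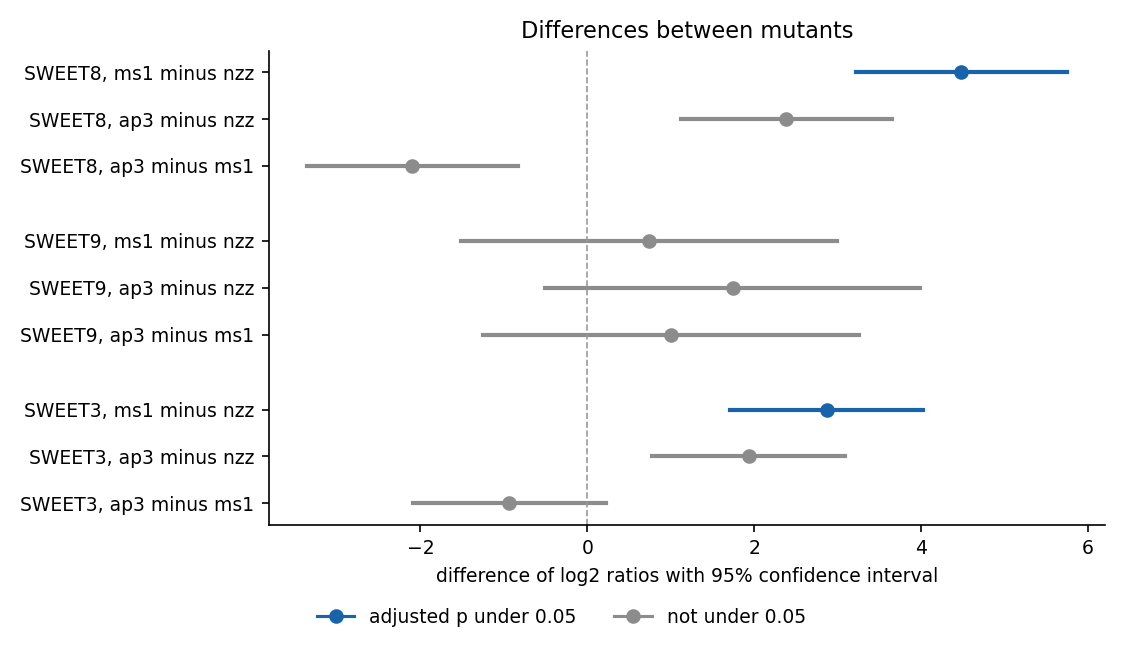
Differences of the log2 ratios between mutants (horizontal axis) with 95% confidence intervals, for 3 contrasts of each gene (vertical axis). The blue intervals, ms1 minus nzz for SWEET8 (4.49) and SWEET3 (2.87), are the only ones with a limma adjusted p under 0.05, and those of SWEET9 all include 0.

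In the ms1 series, where flowers were split by age, SWEET3 rose in samples 3 and 4. In sample 3 the arrays of sets 1, 2 and 3 read 3.06, 4.34 and 2.75, and the ratio was 3.39 ± 0.40, or 10.5-fold higher in ms1 (limma adjusted p = 0.000173, n = 3 arrays). In sample 4 they read 1.71, 2.64 and 3.11, for a ratio of 2.50 ± 0.40 (5.66-fold, limma adjusted p = 0.00315). In these samples 1.53% and 1.27% of all probes were called. The sample 3 call held in each of 12 alternative fits that kept the reading of the values (limma adjusted p at most 0.0325), whereas the sample 4 call was lost when any 1 set was left out (0.0536 to 0.149).

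On both sides of those samples SWEET3 was closer to wild type. Sample 2 read 0.78, 1.27 and 0.94, all above 0, without passing (1.01 ± 0.40, limma adjusted p = 0.244). Sample 1 gave a ratio of 0.16 ± 0.40, and samples 5, 6 and 7 gave 0.15, -0.27 and -0.20. Arrays of samples 1, 5, 6 and 7 lay between -0.71 and 1.33. The variation across the 7 samples passed (moderated F = 13.2, limma adjusted p = 0.00643, where 1.35% of probes passed). It no longer did so when any 1 set was left out (limma adjusted p of 0.202 to 0.413), and read as dye ratios the ratio of sample 3 would be 0.17, not called.

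Of the 21 pairs of series samples, 4 differed for SWEET3, against 0.334% of all probe and pair combinations. All 4 involved sample 3. Sample 1 minus sample 3 was -3.23 ± 0.56, and sample 3 minus samples 5, 6 and 7 was 3.24, 3.66 and 3.60 (limma adjusted p-values of 0.0214, 0.0209, 0.00885 and 0.0101, adjusted over all probes and pairs together). Leaving out any 1 of the sets left 0 pairs called. Ordered from high to low, the ratios ran from sample 3 over samples 4, 2, 1, 5 and 7 to sample 6. No neighbours in that order differed by the test. Sample 4 minus samples 6 and 7 was 2.76 and 2.70, with limma adjusted p-values of 0.0587 and 0.0667. With the set as a block these pairs also passed (0.0369 and 0.0419), so that 6 pairs were called. The count of 4 is that of the main fit, which left the pairing by set out.

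SWEET8 had its highest ratio in sample 6, among the younger buds. The arrays of sets 1, 2 and 3 read 2.58, 2.26 and 2.51, the tightest group of arrays that this gene had in the series (SD 0.17). The ratio was 2.39 ± 0.64, or 5.23-fold, yet the limma adjusted p was 0.129, where 0.882% of probes were called. The SE pools the spread of all 7 samples, and that of sample 7 was wide, with 1.13, -2.00 and 2.67. With the set number as a block, since sets were collected on separate days, the same ratio passed, with a limma adjusted p of 0.0468. The main fit left this pairing out, so whether SWEET8 was called in sample 6 depends on its use. Without the set 2 array of sample 7 the ratio was 2.48 (limma adjusted p = 0.0125, an alternative chosen after the data were seen). On that array SWEET8 was at its lowest in the series and SWEET9 at its highest.

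In the other samples SWEET8 was not called. Sample 3 read -1.91, -0.15 and -0.07, sample 4 read -0.92, -0.04 and -0.31, and sample 2 read from -1.38 to 1.06. Their ratios were -0.77, -0.49 and -0.17, each with an SE of 0.64. Samples 1 and 5 gave -0.20 and 0.29, and sample 7 gave 0.54. Over all probes, samples 1, 2, 5 and 7 had 0.00767%, 0.53%, 1.34% and 0.568% called. No pair of the 21 was called and the variation across samples did not pass (F = 2.78, limma adjusted p = 0.867, unadjusted p = 0.0532).

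SWEET9 had no call in any series sample and no pair of samples was called. The most negative fitted ratios were -2.07 ± 1.07 in sample 3 and -2.39 ± 1.07 in sample 6, with limma adjusted p-values of 0.654 and 0.456. In sample 3, set 1 stood at the limit of -6.64, while sets 2 and 3 read 0.12 and -0.47. In sample 6 the sets read -3.29, -4.46 and -0.22, and in sample 7 they read -0.60, 4.50 and -0.20. The large ratios of SWEET9 thus came from single arrays or pairs that the rest of the sample did not share. In samples 1, 2, 4 and 5 its 12 arrays lay between -1.02 and 1.78.

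**Figure D3:**
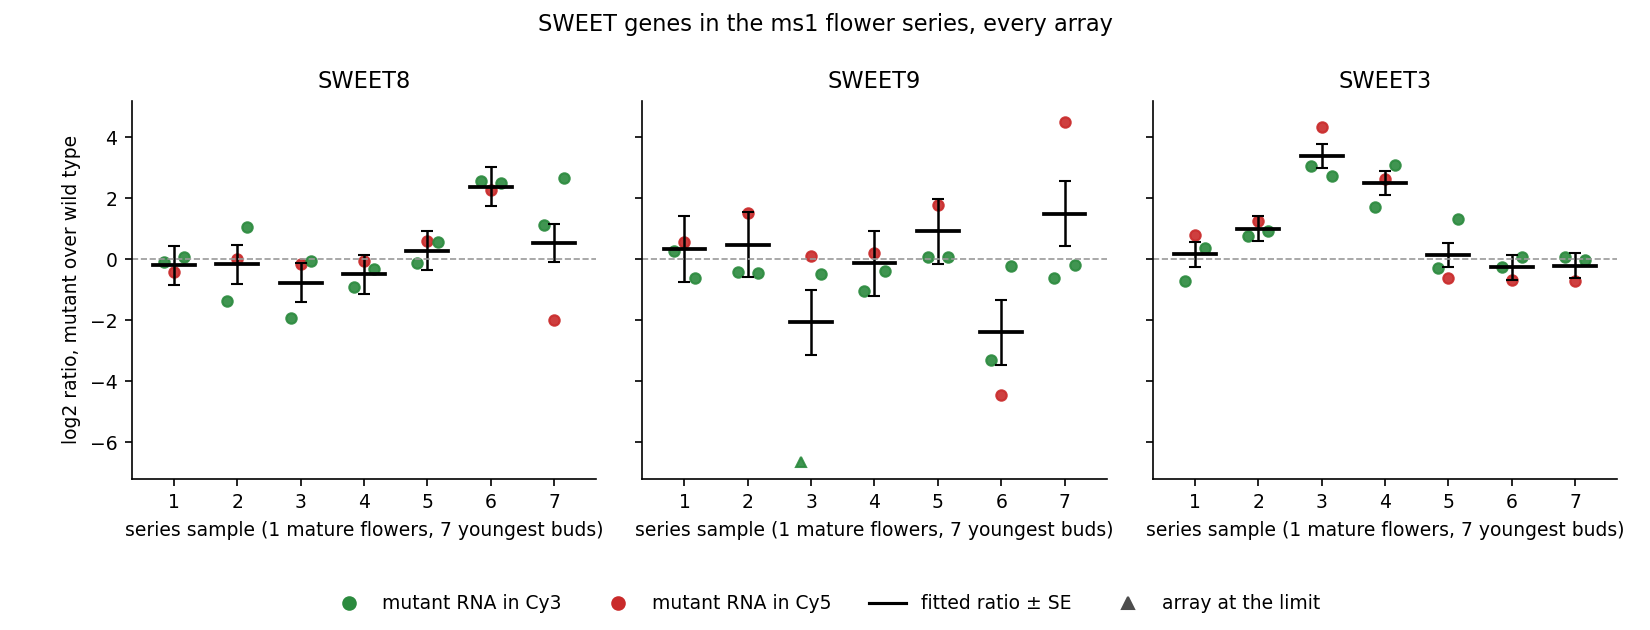
Log2 ratios of ms1 over wild type (vertical axis) in the 7 series samples (horizontal axis) for SWEET8, SWEET9 and SWEET3. Points are arrays coloured by the dye of the ms1 RNA (Cy5 is set 2), the triangle is an array at the limit, and bars give the fitted ratio ± SE. SWEET3 peaks in samples 3 and 4 (3.39 and 2.50), and the SWEET8 arrays of sample 6 lie together between 2.26 and 2.58.

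Among the 16 measured SWEET genes, a list taken whole, 6 fell in nzz and none rose, a share of 37.5% lower against 6.91% of all probes. The 6 include SWEET8, which had been picked out earlier from these data. Read as dye ratios, the nzz count would be 1. The list's median ratio was -1.29, where all probes had 0.10. Beside SWEET8 and SWEET3 these were SWEET7 (-3.92 ± 0.61, 4 of 4 arrays lower, between -4.79 and -2.83), SWEET5, SWEET14 and SWEET13. SWEET5, known from the vegetative cell of pollen, stood at -3.26 ± 0.21 in nzz and -2.56 ± 0.21 in ms1. SWEET13 and SWEET14, close relatives that act together in anthers, stood at -1.65 ± 0.25 and -2.55 ± 0.36 in nzz, and at -1.48 ± 0.25 and -1.79 ± 0.36 in ms1. Whether the probes of these relatives tell the transcripts apart was not tested.

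In ms1, SWEET5, SWEET13 and SWEET14 were the 3 of 16 SWEET genes called lower (18.8% against 1.74% of all probes, list median 0.02 and all-probe median also 0.02). This count was 1 without ms1 replicate 1 or replicate 3, and 0 with ms1 fitted alone or the values read as dye ratios. In ap3, 0 of 16 passed by limma, with 5 at an unadjusted p under 0.05 and a list median of -0.14. The ratios of SWEET5, SWEET13 and SWEET14 were higher in ap3 than in nzz by 3.48 ± 0.30, 1.81 ± 0.35 and 2.81 ± 0.51 (limma adjusted p of 0.00122, 0.0331 and 0.0245, with 2.9% of probes called). SWEET5 was also higher in ap3 than in ms1, by 2.78 ± 0.30 (limma adjusted p = 0.0114, with 0.312% of probes called). The contrasts of this kind share the nzz or ms1 arrays.

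Along the ms1 series, other SWEET genes moved in the samples where SWEET3 or SWEET8 was high. SWEET15, a sucrose transporter also known as the senescence gene SAG29, rose in samples 3 and 4, to 2.86 ± 0.49 and 2.71 ± 0.49 (limma adjusted p of 0.00504 and 0.00919), as did SWEET3. Its arrays there lay between 2.29 and 3.53. In samples 2 and 5 SWEET15 stood at 1.47 and 1.45, not called. In sample 4, SWEET1, a glucose transporter, was 0.49 ± 0.09 higher and SWEET7 fell by 2.65 (SE 0.60, limma adjusted p = 0.0473). SWEET7 was also low in samples 3 and 5, at -1.79 and -2.26, without passing (limma adjusted p of 0.283 and 0.114). In sample 6, where SWEET8 stood at 2.39, SWEET13 and SWEET14 had opposite signs: their ratios were -2.45 and -3.03, both lower in ms1 (limma adjusted p of 0.0235 and 0.00176). SWEET5 stood at -2.77 in that sample without passing (limma adjusted p = 0.0529).

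Counted over the list, 2 of 16 SWEET genes were higher in sample 3 (12.5% against 0.698% of all probes). In sample 4, 3 were higher (18.8% against 0.617%) and 1 was lower (against 0.652%). In sample 5 only SWEET1 was called, as higher (0.56 ± 0.09, against 0.552%), and in sample 6, 2 were lower (12.5% against 0.713%). None was called in samples 1, 2 and 7 by limma (0, 3 and 4 at an unadjusted p under 0.05). Leaving out 1 set, or 1 array chosen after the data were seen, gave 1 to 2 higher genes in sample 3, 0 to 3 in sample 4 and 0 to 1 in sample 5, and 0 to 1 lower genes in sample 4 and 0 to 3 in sample 6. The list's medians in the 7 samples lay between -0.13 and 0.11. SWEET2, SWEET4, SWEET6, SWEET10, SWEET11, SWEET16 and SWEET17 were called in none of the 10 comparisons. SWEET6 stood at the limit on 14 of 33 arrays, and SWEET17 had 2 probes, of which the first is counted.

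**Figure D4:**
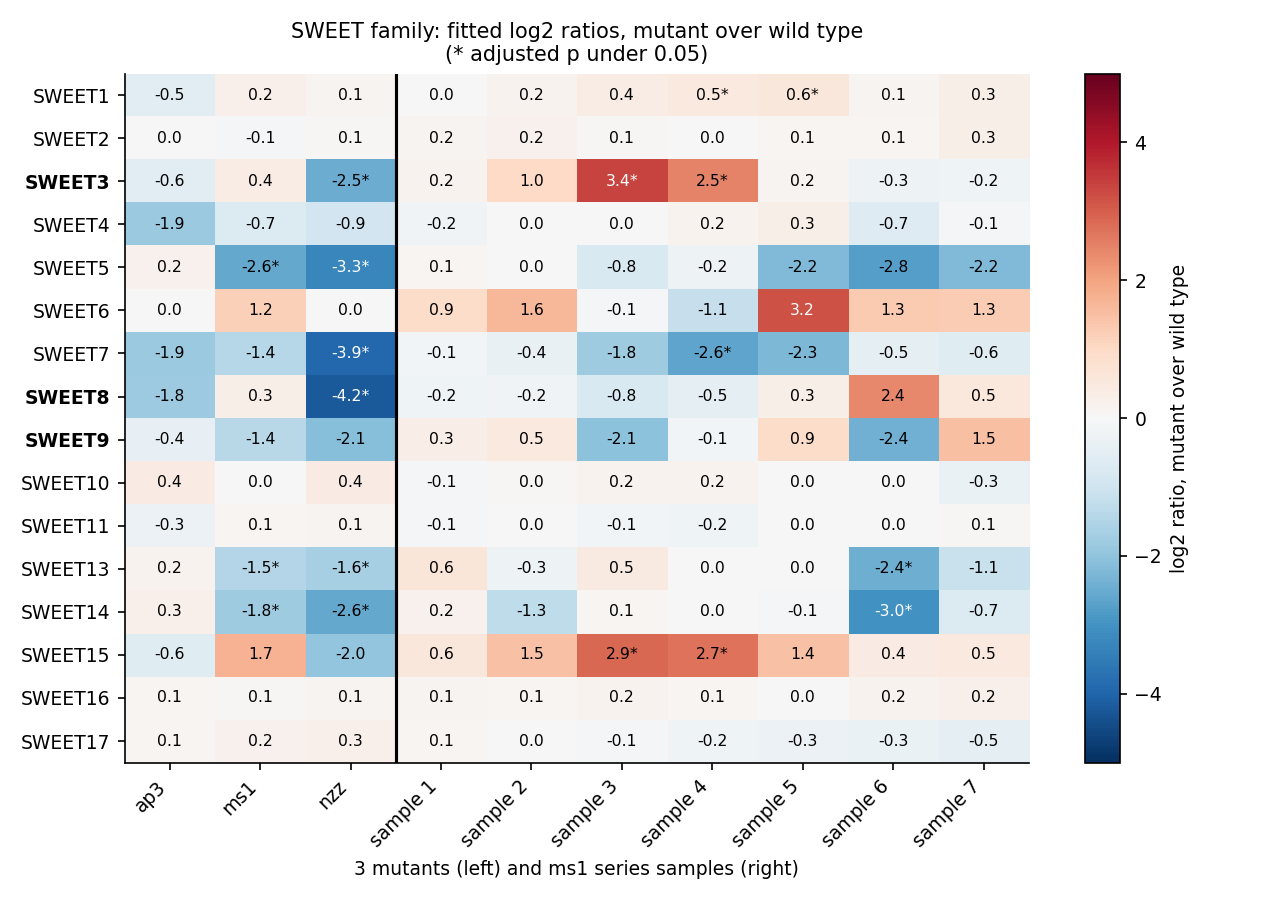
Fitted log2 ratios of mutant over wild type (colour and printed values) for the 16 measured SWEET genes (rows) in 3 mutants and 7 ms1 series samples (columns), with an asterisk at a limma adjusted p under 0.05. The nzz column holds 6 lower genes, led by SWEET8 at -4.21, and the raised ratios of SWEET3 and SWEET15 share samples 3 and 4.

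Tapetal genes moved in nzz beside SWEET8 and SWEET3, and their part in those ratios was not tested. Of 8 listed tapetal regulators 4 had a named probe, and 3 of them fell in nzz (list median -1.95). Of 17 listed tapetum and pollen wall genes 4 had one, and 3 fell (list median -4.73). Both counts stand against 6.91% of all probes called lower in nzz. The members not called there, bHLH089 and UNDEAD, stood at -1.47 and -0.13. In ms1 and ap3 neither list had a call. The medians were 0.33 and -2.55 in ms1, with 0 and 2 genes at an unadjusted limma p under 0.05. In ap3 they were -1.89 and -1.11, with 4 and 1 genes at that level. Within the tapetal genes the ms1 ratios, none called, had both signs: AMS, a tapetal transcription factor, stood at 1.17 in ms1 and -5.32 in nzz, while ATA27 stood at -3.91 in ms1 and -6.22 in nzz, and SHT at -3.54 and -5.01. In series samples 3 and 4, where SWEET3 rose, AMS stood at 2.01 and 2.03. Another tapetal factor, bHLH010, was called lower in both, at -0.88 and -0.97 (limma adjusted p of 0.00451 and 0.00245). Of all probes, 1.53% and 1.27% were called in these samples. There ATA27 stood at -4.85 and -3.99 and SHT at -4.49 and -4.50, none of these called. The rest were not called either, with bHLH091 at 0.89 and 0.65 and bHLH089 at -0.55 and -0.89. ATA20 stood at 0.23 and -0.27, and UNDEAD at -0.10 and -0.01. In series sample 6, AMS stood at 1.88 (arrays 1.24 to 2.14) and ATA27 at 1.16. AMS was not called in these 3 samples. SHT had a fitted ratio of 0.13 after the dye term, although its 3 arrays lay between -0.67 and -0.30. Among the rest of both lists, bHLH010 and ATA20 stood at 0.11 and 0.48. There bHLH089, bHLH091 and UNDEAD stood at -0.05, -0.41 and -0.29, and neither list had a call. In sample 7 AMS stood at -4.32, called lower from 2 arrays of which 1 was at the limit. Of 12 listed mature pollen genes 9 had a named probe. Of these, 5 fell in nzz and 4 in ms1, where 6.91% and 1.74% of all probes were lower. The list medians were -2.13 and -2.69. These pollen genes are part of the reason for the chosen sign, so their side is no independent result.

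For the nectary role of SWEET9 the named probes offered little context. Of 7 other listed nectary genes only JMT, a jasmonate methyltransferase, had a named probe, with ratios of -1.43 in ap3, 0.07 in ms1 and 0.19 in nzz, none called. The nectary regulator CRC and the nectary invertase CWINV4 are not analysed here, so the presence of nectary RNA could not be checked. Named probes covered the wider sugar pathway thinly as well. Of 14 hexose transporters of the STP group, 4 had a named probe. None of these was called in any comparison, with nzz ratios between 0.13 and 0.47. Of 10 invertases and sucrose phosphate synthases, 2 had a named probe and were not called. None of the 9 sucrose transporters or 9 callose and primexine genes had a named probe. Only 13912 of 26090 gene probes have a current locus, so probes without one may still measure some of these genes.

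The likeness of other genes was measured as Pearson's r of the fitted ratios over the 10 comparisons, among 13168 named probes. These points share arrays' dye terms, and 8 of the 10 come from the ms1 genotype. The 5 highest of so many candidates over 10 points can reach a high r by selection alone. For SWEET8 the most similar were AT2G28680 and BGAL15, a beta-galactosidase (r = 0.96 each), then AT1G52450, AT3G23310 and AT3G59480 (0.95 each). AT2G28680 stood at -3.53 in nzz and 1.96 in series sample 6, and BGAL15 at -4.38 and 4.72. For SWEET3 they were AT3G56230 (0.96), AT3G02360, AT5G51490, AT2G16620 and AT5G41680 (0.95, 0.95, 0.95 and 0.95). AT2G16620 stood at 3.84 in series sample 3 and AT5G41680 at 2.97.

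For SWEET9 they were AT1G80120 (0.90), AT5G09370 (0.89), AT5G10750, GH3.3, an auxin-conjugating enzyme (0.85 each), and AT3G56060 (0.84). The ratios of AT1G80120 itself stayed between -0.25 and 0.19. SWEET9 was called in no comparison, so these r values follow ratios that did not pass. Among the 3 genes, r was 0.34 for SWEET8 with SWEET3, 0.19 for SWEET8 with SWEET9 and 0.04 for SWEET9 with SWEET3.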

How the data were processed

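The authors deposited 1 normalized table for 33 arrays, whose values were read here as log10 ratios, since none exceeds 2 in size. No source used here names the base, the scanner software or the normalization. Had the base been 2, every log2 value here would be 3.32 times too large. The deposited log10 values were rescaled to log2 and expressed as mutant over wild type. They were taken as already turned for dye swaps, on uneven evidence. Opposite-dye replicates had a median r of 0.11 over the 16600 probes never limited or missing, but -0.32 over all gene probes. The deposited sign of 97.4% of limited values switched with the dye of the mutant RNA. Whether that share bears on the turning was not tested.

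Groups and dyes came from the labels. Probe names came from the platform annotation, with symbols taken by gene identifier from RefSeq's TAIR10.1 table (13912 of 26090 gene probes have a current locus). The 12 mutant and the 21 series arrays were fitted separately with limma 3.58.1 in R 4.3.3, with 1 coefficient per group and 1 dye term, over probes with values on 3 of 4 or 2 of 3 arrays. In the series the dye term also separates set 2. The fits were tested on simulated data. Per the labels at least 3 biological samples were independent, so the fourth array of a mutant may be a technical repeat, and p-values measure the spread between arrays.

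Set numbers pair the series samples, since the labels state separate collection days (median r of residuals 0.43 within a set). The main series fit did not use this pairing, and the set block was run only as an alternative. Series calls that differ between these fits, for SWEET8 in sample 6 and for pairs of SWEET3, therefore depend on that choice. Replicate numbers of the mutants were not taken as pairs (6 of 12 same-number pairs above 0.1). The genes, lists, tests and the chosen sign came with earlier results of these data known. Named were the 3 genes, the members of the gene lists, and for each of the 3 the 5 genes with the highest Pearson r, limited on at most 8 arrays. Alternatives were scaling, centring, the dye term, limited values, complete probes, the block, fits of 1 mutant, the dye reading and leaving out arrays. No sequence or coordinate was used.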

Additional observations from a re-analysis of the deposited data

Results flagged for a closer look

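SWEET3 in nzz had 1 array apart from the other 3: replicate 2 read -1.62, against -2.93 to -2.71. Of the 9 groups of 4 arrays tested for such a gap it was the only 1, and about 1 in 20 groups is marked by chance.

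The effects of mutants differed for 4 SWEET genes beside SWEET8. In ms1 minus nzz these were SWEET8 at 4.49 and SWEET3 at 2.87. In ap3 minus nzz they were SWEET5 at 3.48, SWEET13 at 1.81 and SWEET14 at 2.81, and in ap3 minus ms1 SWEET5 at 2.78. Between series samples SWEET3 differed in 4 pairs in the main fit, which left out the pairing by set. The differences were -3.23 for sample 1 minus sample 3 and 3.24, 3.66 and 3.60 for sample 3 minus samples 5, 6 and 7.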

How the results depend on the processing

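Most results rest on the reading of the values as already turned. Each group holds both dyes, so the dye reading sets its arrays against each other. An effect of like size on all arrays then largely cancels by arithmetic, so calls lost in this reading are no test of the results. Read as dye ratios not yet turned, SWEET8 had ratios of -0.32 in ms1 and 0.21 in nzz, and 0.062 and -0.12 in series samples 1 and 5. Its differences were -0.53 for ms1 minus nzz and -0.54 for ap3 minus nzz. SWEET9 had 0.47 in ms1, -0.83 for ap3 minus ms1, and -0.23, -0.73, -0.48, 0.38 and -1.70 in series samples 1, 2, 5, 6 and 7. SWEET3 had -0.34 in nzz, 0.67 for ms1 minus nzz, -0.13 for ap3 minus nzz, and -0.69, -0.17, 0.17 and 0.41 in series samples 1 to 4. Its F was 0.131 with 0 pairs called. The SWEET genes called lower numbered 1 in nzz and 0 in ms1 and in series samples 4 and 6, and those called higher 0 in series samples 3, 4 and 5. None of these values of the 3 genes passed, and how much of each change comes from this cancelling was not counted.

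Among the other alternatives, scaling the arrays to one spread gave SWEET3 3.12 for ms1 minus nzz (limma adjusted p = 0.112). With limited values missing, SWEET8 for ap3 minus nzz passed at 2.39 (limma adjusted p = 0.0436). Fitted alone, ms1 had 0 lower SWEET genes, and without a dye term series sample 4 had 0. With the replicate number as a block, ms1 minus nzz was 4.49 for SWEET8 and 2.87 for SWEET3 (limma adjusted p of 0.0672 and 0.114), and 1 SWEET gene was lower in ms1. With the set block, SWEET8 in series sample 6 passed at 2.39, SWEET3 had 6 pairs called, and the blocks changed no other call on a ratio or mutant difference of the 3 genes. With series sample 7 left out it was 2.48 (limma adjusted p = 0.0117), with 1 SWEET8 pair called. Mutant replicate numbers had a median r of 0.05 (-0.20 to 0.29), so their block is no pairing from the design.

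Leaving out arrays gave SWEET8 1.90 to 2.82 for ap3 minus nzz and 4.29 to 4.71 for ms1 minus nzz. In series samples 1, 2, 6 and 7 it gave -0.24 to 0.0018, -0.69 to 0.53, 2.36 to 2.54 and -0.44 to 2.00, with 0 to 1 pairs called. SWEET3 ranged from 1.69 to 2.42 for ap3 minus nzz and 2.56 to 3.21 for ms1 minus nzz. In series samples 1, 4, 5 and 7 it ranged from -0.16 to 0.57, 2.18 to 2.87, -0.46 to 0.52 and -0.36 to 0.13, with F of 8.16 to 14.3 and 0 to 4 pairs called. SWEET9 ranged from -2.51 to -1.26 in nzz, -0.17 to 1.39 for ms1 minus nzz, and -0.17 to 0.42, -0.43 to 0.55 and -0.40 to 2.15 in series samples 1, 2 and 7. The SWEET genes called lower numbered 1 to 3 in ms1, 0 to 1 in series sample 4 and 0 to 3 in sample 6, and those called higher 1 to 2, 0 to 3 and 0 to 1 in samples 3, 4 and 5.

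Apart from the dye reading, SWEET8 and SWEET3 in nzz passed in 19 of 19 alternatives (-4.43 to -4.01 and -2.77 to -2.36), and SWEET3 in series sample 3 in 12 of 12 (2.90 to 3.70). Over all alternatives, 597 values of the 3 genes kept their direction and side of the threshold and 29 changed sign. Those that no longer passed, sign changes included, numbered 29, and 7 newly passed. The number of arrays limits what could be called, and signal over background is not known here.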
